A study of Mus musculus with 335 samples.

Results

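HRM1 primary tumours are mammary tumours grown in FVB mice by injecting the HRM1 line into the mammary gland, an orthotopic allograft in which mouse tumour cells are placed in the organ they came from. They were taken by sample title, which gave 4 of the 335 RNA-seq libraries of a study of metastatic mouse mammary cancer. The labels name Pik3ca as the driver of HRM1. They were set against 24 primary tumours of 6 other lines that carry the same library numbering, with 4 tumours per line, all injected by the same route and all untreated. D2A1, EMT6, F311 and TSAE1 tumours were in BALB hosts, E0771 tumours in BL6 hosts and R3T tumours in 129S1J hosts, and their labels give the driver as unknown. HRM1 was the only line of this numbering in FVB, so the line, its driver and the host strain cannot be told apart. A second comparison therefore used 18 FVB tumours of 3 lines from other library series, with 6 tumours each: 6DT1 (driver cMyc), Mvt1 (driver cMYC / VEGF) and Met1 (driver PyMT). Each line is 1 cell population, and p-values measure the spread between tumours grown from it, not between lines.

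Pik3ca encodes the catalytic subunit of phosphoinositide 3-kinase, which turns growth factor signals into a membrane lipid that recruits and activates AKT kinases. Mdm2 encodes the ubiquitin ligase that marks the tumour suppressor p53 for degradation and is itself a transcriptional target of p53. Interferon-stimulated genes are switched on by interferons through STAT and IRF factors, and in a tumour they can be read both from cancer cells and from the immune cells around them. In bulk tissue, fewer cells of a type and less RNA per cell cannot be told apart.

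Levels are the deposited RPKM, reads scaled to transcript length and to the reads of the library. The counted reads per library, recovered from the smallest steps of the values, numbered 27913377 to 45119190 counted reads in HRM1 tumours, 28257835 to 54906212 in the 24 tumours of 6 lines and 16850995 to 47099290 in the 18 tumours of 3 FVB lines. Differences are HRM1 minus the other lines on log2(RPKM + 1), a scale that understates changes of low genes, and carry the standard error (SE) of limma, a linear model fitted to all genes at once. Genes with a Benjamini-Hochberg adjusted p under 0.05 are termed called, and all adjusted p-values below are limma's. Values of the 4 HRM1 tumours are given in the order of tumours 1-6, 1-7, 1-9 and 1-11. Tumours 1-7 and 1-11 stood apart in muscle genes and tumour 1-7 in fat genes: Acta1, which encodes skeletal muscle actin, was at 0.697, 56.0, 0.509 and 136 RPKM and Adipoq, the fat cell hormone adiponectin, at 18.4, 226, 2.41 and 21.3 RPKM. List counts that move by over 1.5 times without these 2 tumours are given without them as well. Over all genes that fit called fewer too: 2265 of 12067 (18.8%) higher and 1627 (13.5%) lower. The deposited column names give all 4 TSAE1 tumours the same animal number, so whether they came from 4 animals is not settled.

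Of 12181 genes tested, 5668 (46.5%) were called, of which 3380 (27.7%) were higher and 2288 (18.8%) lower in HRM1 tumours than in the mean of the 6 lines, with a median difference over all genes of 0.06. List counts against the mean of the 6 lines, given below, are to be read against these shares. Against single lines, 4136 genes (34.0%) were called in HRM1 tumours against TSAE1, 5051 (41.5%) against R3T, 5321 (43.7%) against F311, 5982 (49.1%) against EMT6, 6829 (56.1%) against D2A1 and 7601 (62.4%) against E0771. By direction, 16.4% were higher and 17.6% lower against TSAE1, 22.5% and 19.0% against R3T, and 22.0% and 21.7% against F311. The shares were 29.7% and 19.4% against EMT6, 38.3% and 17.8% against D2A1, and 36.5% and 25.9% against E0771. List counts against a single line are to be read against the shares of that line. A smaller set stood apart from every line: 313 genes (2.57%) were called higher in HRM1 against each of the 6 lines and 171 genes (1.4%) were called lower against each. In 225 genes (1.85%) the lowest HRM1 tumour lay above all 24 others, and in 142 genes (1.17%) the highest HRM1 tumour lay below all 24 others. With line means as units in place of tumours, 13 genes were called higher and 1 lower. Those 13 were Cpm, Mdm1, Mdm2, Krt27, Ap1m2, Ankrd22, Hgfac, Jag2, Nr1h5, Samd5, Il22, Tuba8 and Slc35e3, and the lower one was the small nucleolar RNA Snora44. Snora44 was at 0, 0.251, 3.46 and 0.758 RPKM in HRM1 tumours and was not called against the FVB lines (difference -0.32, adjusted p = 0.601).

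The 3 genes that set HRM1 furthest from the nearest line, Cpm, Mdm2 and Mdm1, came from 1 stretch of chromosome 10. Mdm2 was at 1009.9, 934, 938 and 1068 RPKM in HRM1 tumours, against 9.03, 14.6 and 59.8 RPKM as the lowest, median and highest of the 24 others. Every HRM1 tumour lay far above every other tumour, and the 4 HRM1 values were close to each other. The difference was 5.95 ± 0.22 (SE, adjusted p = 6.88e-17). On the same per-length scale Gapdh, an abundant glycolytic enzyme, averaged 768 RPKM in HRM1 tumours, where Mdm2 averaged 987 RPKM. Cpm, which encodes carboxypeptidase M, a membrane enzyme that trims basic residues from peptide ends, was at 336, 313, 3138 and 370.4 RPKM in HRM1 tumours, against 0.00502, 0.278 and 2.29 RPKM as the lowest, median and highest of the others. Tumour 1-9 was far above the other 3 HRM1 tumours, and all 4 lay above all others. The difference was 8.69 ± 0.34 (SE, adjusted p = 5.08e-16).

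In the gene order of the RefSeq annotation of assembly GRCm38.p6, 7 tested neighbours in a row were higher in HRM1 than in each of the 6 lines: Cpm, Mdm2, Slc35e3, Nup107, Rap1b, Mdm1 and Il22. The authors' build was mm9, so this assembly served for the order only. Over the 12142 tested genes that could be placed, the next longest such runs held 3 genes, and there were 2 of them. The run was noticed in the values and is a description, with no test. Mdm1, which encodes a microtubule-binding protein, was at 104, 157, 39.96 and 63.0 RPKM in HRM1 tumours and at no more than 4.29 RPKM in the 24 others. Nup107, a subunit of the nuclear pore, was at 161, 56.6, 154 and 61.8 RPKM in HRM1 tumours and at no more than 21.8 RPKM in the others. Neither gene overlapped between HRM1 and the other tumours. Rap1b, a small GTPase of cell adhesion, was at 571, 309, 926 and 377 RPKM in HRM1 tumours, against 62.1 to 164 RPKM in the others. Slc35e3, of a solute carrier family, was at 56.97, 42.4, 319 and 41.3 RPKM in HRM1 tumours and at no more than 10.2 RPKM in the others. These ranges did not overlap either.

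Genes beside the run did not share its levels. Cpsf6, an mRNA cleavage factor subunit next to Cpm, was at 11.0 to 14.2 RPKM in HRM1 tumours and at 10.5 to 18.8 RPKM in the others, with a difference of -0.09 ± 0.09 (SE, adjusted p = 0.441). Next came the lysozyme genes Lyz1 (difference 1.09 ± 0.43 SE, adjusted p = 0.0386) and Lyz2 (difference 0.69 ± 0.20 SE, adjusted p = 0.00676), close copies that may share reads. Both were called higher in HRM1 but not apart from every line, and the highest HRM1 values of 183 RPKM for Lyz1 and 2202 RPKM for Lyz2 lay below the 413 and 4708 RPKM reached in the others. Beyond them, Yeats4 had a difference of -0.02 (adjusted p = 0.806), Frs2 of -0.18 (adjusted p = 0.202) and Cct2 of -0.13 (adjusted p = 0.287). At the other end, Il22, the cytokine interleukin-22, was at 2.92, 21.6, 3.94 and 3.09 RPKM in HRM1 tumours and at no more than 0.0173 RPKM in the 24 others. Its near-identical neighbour Iltifb, below the filter, was at 0.238 to 2.03 RPKM in HRM1 tumours and listed at 0 in all 24 others, and since reads of the pair may be shared neither value is certain. The next gene, Ifng, which encodes interferon-gamma, was at 0.0132 to 0.0854 RPKM in HRM1 tumours and at 0 to 6.20 RPKM in the others, a difference of -1.08 ± 0.26 (SE, adjusted p = 0.0017). Further on, Dyrk2 (difference 0.35) and Cand1 (difference 0.39) were called higher in HRM1 but not apart from every line.

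**Figure D1:**
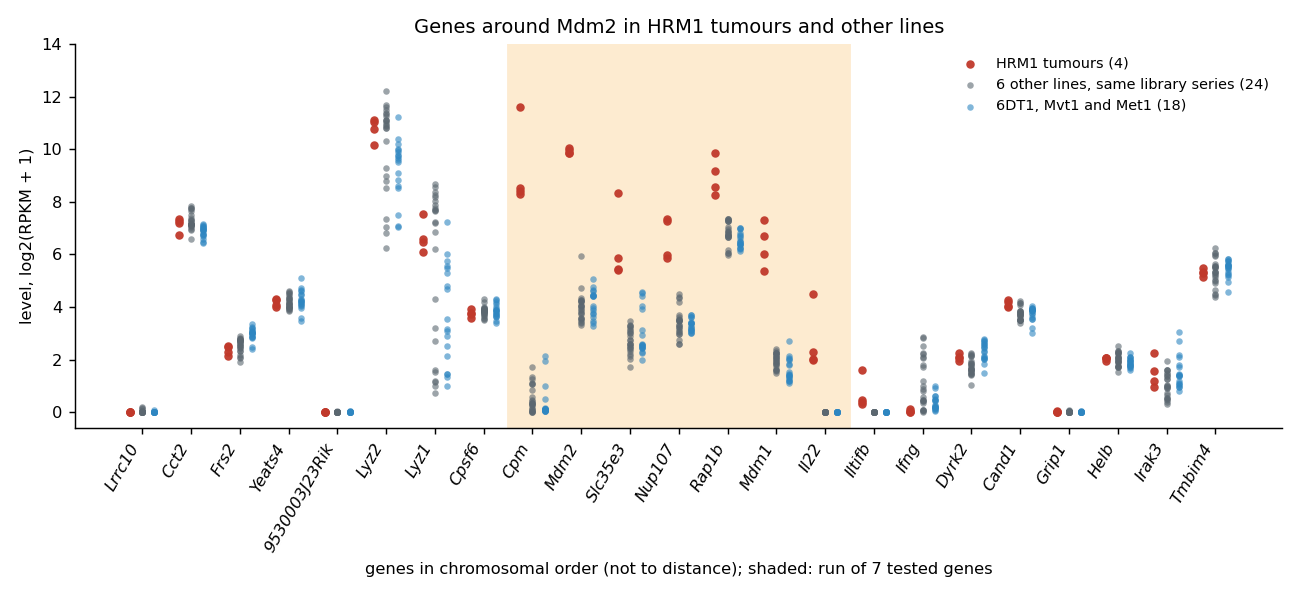
Level of each gene in log2(RPKM + 1), in chromosomal order around Mdm2 and not to distance, with 1 point per tumour: HRM1 in red, the 24 tumours of 6 lines in grey and the 18 tumours of 6DT1, Mvt1 and Met1 in blue. Within the shaded run of 7 genes from Cpm to Il22 the HRM1 points lie above the others, while those of Cpsf6 on one side and Ifng on the other do not.

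Within the run the 4 HRM1 tumours did not vary together. Cpm and Slc35e3, which lie on either side of Mdm2, were both highest in tumour 1-9, whereas Mdm2 between them was at 938 RPKM there and at 934 to 1068 RPKM over the 4 tumours. Rap1b was also highest in tumour 1-9, and Mdm1 was lowest there, at 39.96 RPKM. Il22 and Mdm1 were highest in tumour 1-7. DNA was not measured, so copy number and transcription cannot be told apart.

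The FVB lines lacked these levels too. Mdm2 averaged 987 ± 64.0 RPKM in HRM1 tumours (SD, n = 4), against 21.1 ± 3.47 RPKM in 6DT1, 21.1 ± 6.78 RPKM in Mvt1 and 10.8 ± 1.61 RPKM in Met1 (SD, n = 6 each), and the 1 PyMT transgenic FVB tumour of the same library numbering was at 23.4 RPKM. The difference from the mean of the 3 FVB lines was 5.81 for Mdm2 (adjusted p = 5.53e-17), 8.82 for Cpm, 4.72 for Mdm1, 3.29 for Nup107, 3.24 for Slc35e3, 2.70 for Il22 and 2.42 for Rap1b, all called.

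Outside this stretch, the 8 genes with the largest distance above the nearest of the 6 lines were Krt27, Hgfac, Ap1m2, S100a14, Rab25, Ankrd22, Jag2 and Nr1h5. Krt27, a keratin of the hair follicle, was at 13.4, 30.0, 19.9 and 12.3 RPKM in HRM1 tumours and at no more than 0.910 RPKM in the 24 others, a difference of 4.13 ± 0.15 (SE, adjusted p = 3.71e-17). Hgfac, a serine protease that activates hepatocyte growth factor, was at 16.2, 24.5, 17.4 and 23.1 RPKM in HRM1 tumours and at no more than 1.15 RPKM in the others. For all 8 genes the HRM1 tumours lay above the 24 others without overlap. Jag2, a ligand of Notch receptors, was at 9.57, 10.2, 12.8 and 10.3 RPKM in HRM1 tumours and at no more than 0.882 RPKM in the others. Nr1h5, a nuclear receptor, was at 9.43, 7.47, 7.08 and 4.86 RPKM in HRM1 tumours and at no more than 0.116 RPKM in the others. Ankrd22, an ankyrin repeat protein, was at 9.81, 9.49, 6.76 and 9.20 RPKM in HRM1 tumours and at no more than 0.776 RPKM in the others.

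The remaining 3 are genes of epithelium. Ap1m2, the epithelial subunit of the AP-1 sorting adaptor, was at 17.1, 17.9, 13.5 and 15.3 RPKM in HRM1 tumours, with 2.36 RPKM as the highest of the others. Rab25, a GTPase of recycling endosomes, was at 41.5, 47.9, 48.9 and 30.6 RPKM in HRM1 tumours, with 7.63 RPKM as the highest of the others. S100a14, a calcium-binding protein, was at 195, 212, 242 and 120.5 RPKM in HRM1 tumours, against 25.9 ± 22.7 RPKM in R3T (SD, n = 4), the highest of the 6 line means. Some of the 8 were also present in FVB lines. Rab25 averaged 42.2 RPKM in HRM1 and 65.9 RPKM in Met1 tumours, Ap1m2 16.0 RPKM in HRM1 and 23.4 RPKM in Met1, and Nr1h5 7.21 RPKM in HRM1 and 8.62 RPKM in 6DT1. Krt27 and Hgfac were at no more than 0.875 and 0.0803 RPKM in the 18 FVB line tumours.

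**Figure D2:**
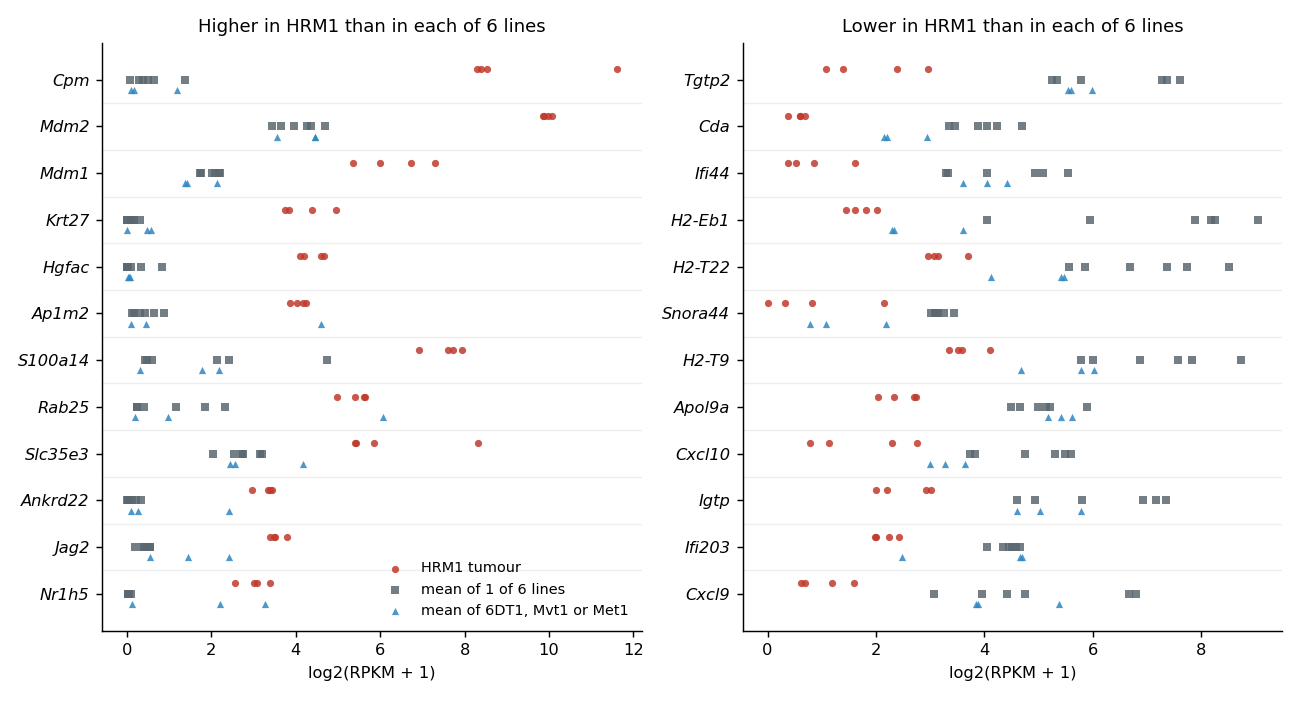
The 12 genes in each direction furthest from the nearest of the 6 lines, in log2(RPKM + 1), with a red point for each of the 4 HRM1 tumours, grey squares for the means of the 6 lines and blue triangles for the means of 6DT1, Mvt1 and Met1. HRM1 tumours lie beyond the 6 line means in each gene, while the mean of an FVB line reaches the HRM1 values or passes them for Ap1m2, Rab25, Nr1h5 and Snora44.

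Epithelial genes were high as a group. All 13 tested keratin and junction genes of luminal epithelium were higher in HRM1 than in the mean of the 6 lines and 0 were lower, with a median difference of 2.71, against 0.06 over all genes tested. Krt7, a simple epithelial keratin, was at 501, 331, 710.4 and 447 RPKM in HRM1 tumours, against 0.257, 36.3 and 326 RPKM as the lowest, median and highest of the others. Epcam, an epithelial adhesion molecule, was at 147, 121, 100.0 and 119.5 RPKM in HRM1 tumours, against 0.308, 2.07 and 59.2 RPKM as the lowest, median and highest of the others. HRM1 did not overlap the others in either gene. The differences were 4.53 ± 0.17 for Krt7 (SE, adjusted p = 1.33e-16) and 4.29 ± 0.38 for Epcam (SE, adjusted p = 2.31e-09). Krt19, Cldn7, Grhl2 and Ocln were also apart from every line. Krt8 (493 to 868 RPKM in HRM1, 31.7 to 808 RPKM in the others), Krt18 (477 to 877.9 and 1.99 to 689.8 RPKM) and Cdh1, which encodes E-cadherin (16.2 to 28.4 and 0.128 to 45.7 RPKM), were called higher but overlapped. With the 24 others fitted as 1 group, 7 of the 13 were called higher, a fit that called 768 genes higher (6.3%) and 406 lower (3.33%) over all genes tested.

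The distance depended on the line. The median difference of the 13 members was 5.26 against E0771, 4.78 against EMT6, 4.21 against D2A1, 1.81 against F311, 1.51 against R3T and 0.49 against TSAE1. Members called higher in HRM1 numbered 12 against E0771 (36.5% of all genes tested), 13 against EMT6 (29.7%), 13 against D2A1 (38.3%), 12 against F311 (22.0%), 11 against R3T (22.5%) and 7 against TSAE1 (16.4%), with 1 lower against E0771 and 1 against TSAE1. Elf3, an epithelial transcription factor, was at 10.4, 12.5, 8.70 and 11.2 RPKM in HRM1 tumours, with 6.58 RPKM as the highest of the others, and was apart from every line. Sfn, the epithelial 14-3-3 protein stratifin, was apart as well, with a difference of 3.21 ± 0.23 (SE, adjusted p = 5.65e-11).

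Basal genes gave a divided picture. Of 9 tested basal and myoepithelial genes, 4 were higher (27.7% of all genes tested) and 0 lower (18.8%), with a median difference of 0.54. Against F311 1 was higher (22.0% of all genes tested) and 2 lower (21.7%). Krt14, a basal keratin, was at 112, 56.3, 93.2 and 26.9 RPKM in HRM1 tumours, against 0.748, 2.59 and 73.6 RPKM as the lowest, median and highest of the others (difference 3.23 ± 0.28 SE, adjusted p = 1.44e-09). Its usual partner Krt5 was at 4.05, 1.90, 4.00 and 1.99 RPKM in HRM1 tumours, with a median of 1.53 RPKM in the others, and was not called (difference 0.50, adjusted p = 0.161). Trp63, a factor of basal epithelium, was at 0.194 to 0.389 RPKM in HRM1 tumours, with a median of 0.501 RPKM in the others (difference -0.38, adjusted p = 0.0701). Of 10 tested mesenchymal genes and their factors, 3 were higher (27.7% of all genes tested) and 5 lower (18.8%). Vim, the mesenchymal filament vimentin, was at 559.8, 441, 367 and 929 RPKM in HRM1 tumours, against 558, 1708 and 2763 RPKM as the lowest, median and highest of the others (difference -1.52 ± 0.16 SE, adjusted p = 2.93e-08).

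Hormone receptor transcripts were low in HRM1 and in the others. Esr1, the oestrogen receptor, was at 0.512 to 1.73 RPKM in HRM1 tumours and at 0.0321 to 2.11 RPKM in the others, with no call (adjusted p = 0.109). Pgr, the progesterone receptor, was at no more than 0.446 RPKM in HRM1 tumours and at no more than 0.398 RPKM in the others, below the filter for testing. Gata3, the luminal lineage factor, was at 0.614, 0.762, 0.445 and 0.166 RPKM in HRM1 tumours, with a median of 1.53 RPKM in the others, a difference of -0.86 ± 0.12 (SE, adjusted p = 1.74e-06). That difference came with R3T, TSAE1 and F311, at means of 6.68, 5.24 and 2.55 RPKM. The HRM1 mean of 0.497 RPKM was not below those of D2A1 (0.403 RPKM), EMT6 (0.485 RPKM) and E0771 (0.0933 RPKM).

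Genes of the p53 response and the Cdkn2a locus were higher than in the mean of the 6 lines: 11 of 13 tested members, Mdm2 among them, were higher (27.7% of all genes tested) and 0 lower, with a median difference of 0.96. With the 24 others fitted as 1 group 6 were called higher (6.3% of all genes tested). The count depended on the line. Against R3T 4 were higher (22.5% of all genes tested), with a median difference of 0.29, and against TSAE1 7 were higher (16.4%) and 1 lower (17.6%). Against the other 4 lines 9 to 12 were higher (22.0% to 38.3% of all genes tested), with 1 lower against E0771. Cdkn2a, whose transcripts encode the tumour suppressors p16 and p19Arf, was at 168, 113, 219 and 249 RPKM in HRM1 tumours, against 0.240, 85.4 and 243 RPKM as the lowest, median and highest of the others. HRM1 was not apart there: its mean of 187 ± 59.6 RPKM stood beside 234 ± 5.76 RPKM in TSAE1 and 0.285 ± 0.0316 RPKM in E0771 (SD, n = 4 each). Cdkn2b, the neighbouring inhibitor p15, had a difference of 2.05 ± 0.19 (SE, adjusted p = 2.25e-09). The p53 targets Ccng1 (difference 1.34), Aen (0.97), Zmat3 (0.96), Phlda3 (0.89), Trp53inp1 (1.62), Eda2r (0.65) and Bax (0.32) were called higher, and Aen was apart from every line. Cdkn1a, which encodes the cell cycle inhibitor p21, was at 23.0, 20.9, 28.7 and 35.5 RPKM in HRM1 tumours, with a median of 24.1 RPKM in the others, and was not called (difference 0.08, adjusted p = 0.785). Trp53 itself was at 51.9, 32.0, 71.0 and 45.6 RPKM in HRM1 tumours, with a median of 34.5 RPKM in the others (difference 0.61 ± 0.12 SE, adjusted p = 0.000167). It was not apart from every line. The HRM1 mean of 50.1 RPKM stood beside 59.9 RPKM in E0771, 47.6 RPKM in TSAE1, 42.8 RPKM in R3T and 6.80 RPKM in D2A1.

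The interferon response was lower in HRM1 than in the 6 lines. All 22 tested interferon-stimulated genes were lower than in the mean of the 6 lines and 0 were higher, with a median difference of -1.85, and 12 were lower than in each line. Against single lines 16 members were called lower against R3T (19.0% of all genes tested), 17 against D2A1 (17.8%), 19 against TSAE1 (17.6%), and 22 each against E0771 (25.9%), EMT6 (19.4%) and F311 (21.7%). All 22 were called without tumours 1-7 and 1-11 as well, and 17 with the 24 others fitted as 1 group. Promoter letters are shown for 4 of the interferon-regulated genes, since GAAANNGAAA, the core of the element bound by interferon-activated factors, recurs in this list. They are from RefSeq, GRCm38.p6, each the part of the window of 250 bases before to 50 after the gene's start that holds the motif, with 25 bases on each side; capitals mark matches on either strand, and overlapping matches run together.
Ifit1, chr19:34640760-34640838, plus strand: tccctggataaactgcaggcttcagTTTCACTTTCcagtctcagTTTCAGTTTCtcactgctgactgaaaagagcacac
Isg15, chr4:156200850-156200921, minus strand: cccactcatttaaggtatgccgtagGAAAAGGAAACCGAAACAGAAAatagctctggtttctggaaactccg
Oas1a, chr5:120907505-120907570, minus strand: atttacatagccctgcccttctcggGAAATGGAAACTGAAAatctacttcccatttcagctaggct
Cxcl10, chr5:92349068-92349127, minus strand: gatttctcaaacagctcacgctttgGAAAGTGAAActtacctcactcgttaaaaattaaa

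The motif was in 10 of the 16 interferon-stimulated genes with a promoter in the table (62.5%) and in 22 of 131 genes lower in HRM1 than in every line (16.8%). It was in 3 of 236 genes higher than in every line (1.27%), in 307 of 9482 tested genes (3.24%) and in 952 of all 27025 promoters (3.52%). In the interferon-gamma and class I list, which holds Cxcl10, it was in 4 of 13 genes (30.8%). Ifit2, Oasl1, Oasl2, Irf7, Ifi44 and Cxcl9, all lower in HRM1 than in every line, had no match in the window. A match describes the letters and not a bound site.

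The genes shown were lower in HRM1, and Cxcl10 is described with its own list. Ifit1, which binds foreign RNA ends, was at 3.53, 4.31, 1.68 and 1.07 RPKM in HRM1 tumours, against 3.24, 13.4 and 74.1 RPKM as the lowest, median and highest of the others. Isg15, a ubiquitin-like modifier, was at 22.7, 13.9, 7.68 and 6.16 RPKM in HRM1 tumours, against 11.0, 60.4 and 199 RPKM. Oas1a, which senses double-stranded RNA, was at 10.6, 7.89, 4.46 and 4.82 RPKM in HRM1 tumours, against 6.79, 38.2 and 98.9 RPKM. All 3 overlapped the lowest of the other tumours, and the differences were -2.20 ± 0.25, -2.32 ± 0.29 and -2.20 ± 0.19 (SE, adjusted p = 1.13e-07, 4.86e-07 and 6.16e-10). Ifi44, a further member, was at 2.07, 0.801, 0.440 and 0.302 RPKM in HRM1 tumours, against 4.54, 18.4 and 60.9 RPKM as the lowest, median and highest of the others, without overlap (difference -3.47 ± 0.26 SE, adjusted p = 1.15e-10). The factor Irf7 (difference -2.15) and the RNA sensors Ddx58 (-0.99) and Ifih1 (-1.23) were apart from every line. The summed level of the list was 178, 156, 102 and 96.5 RPKM in HRM1 tumours and 135 to 1414 RPKM in the others, so tumours 1-9 and 1-11 were the lowest of the 4. The 1 PyMT transgenic FVB tumour of the same library numbering was at 163 RPKM, within the HRM1 range.

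**Figure D3:**
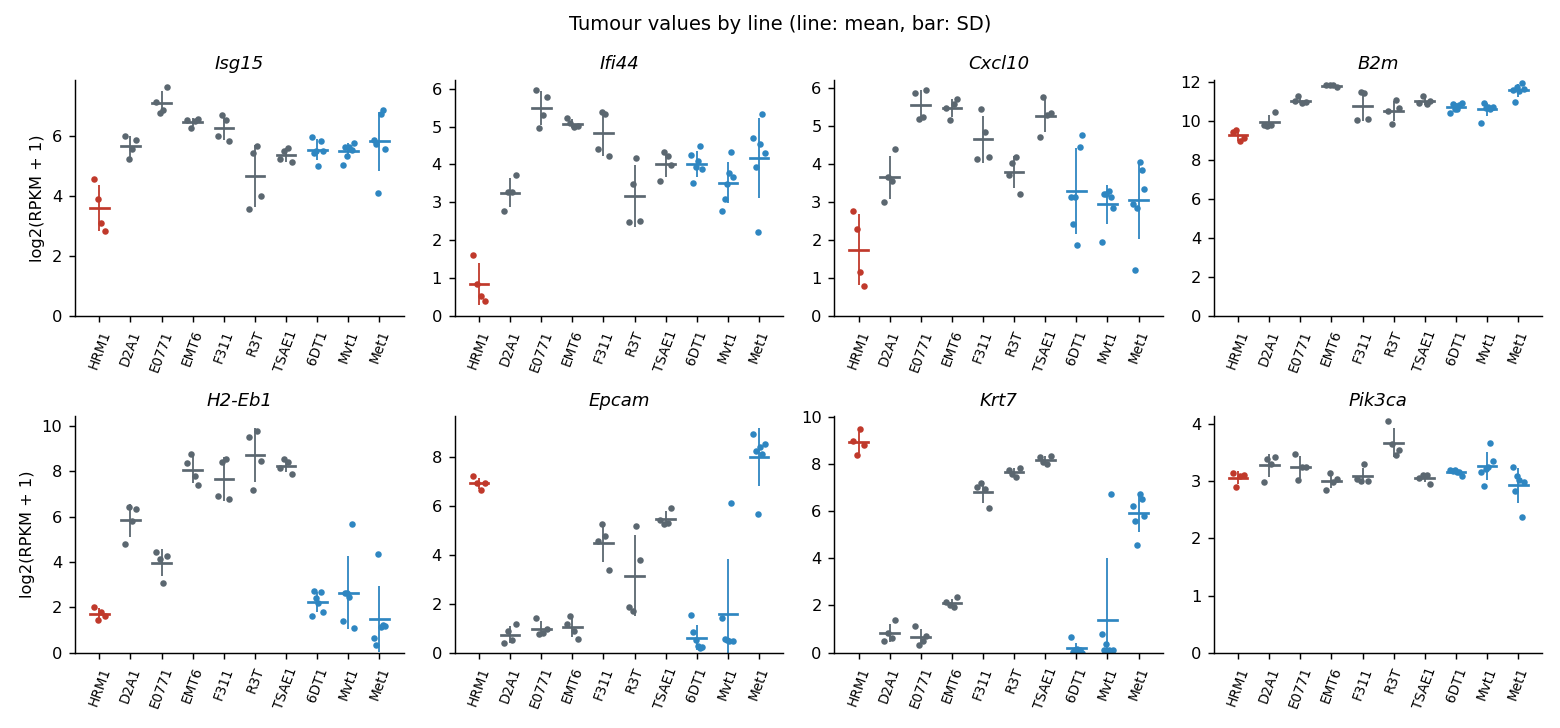
Levels of 8 genes in log2(RPKM + 1), with 1 point per tumour, a horizontal line for the mean and a vertical bar for the SD of each line: HRM1 in red, the 6 lines in grey and the 3 FVB lines in blue. The HRM1 mean is the lowest for Isg15, Ifi44, Cxcl10 and B2m, its Krt7 points lie above all others, Met1 passes it in Epcam, and the Pik3ca mean is highest in R3T.

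The interferon-gamma and antigen presentation genes were lower too. Of 16 tested, 13 were lower and 0 higher, with a median difference of -2.15, and 6 were lower than in each line. Against D2A1 2 were higher (38.3% of all genes tested) and 6 lower (17.8%). The summed level was 987 to 1612 RPKM in HRM1 tumours and 1108 to 6566 RPKM in the 24 others. The 1 PyMT transgenic FVB tumour was at 709 RPKM, below every HRM1 tumour. Cxcl10, a chemokine that attracts T cells, was at 5.77, 3.91, 1.21 and 0.720 RPKM in HRM1 tumours, against 6.96, 31.1 and 60.4 RPKM as the lowest, median and highest of the others, without overlap. Tap1, the peptide transporter of class I presentation, was at 4.33, 4.90, 3.88 and 3.24 RPKM in HRM1 tumours, against 5.64, 47.2 and 101 RPKM. B2m, the class I light chain, was at 694, 745, 497 and 559 RPKM in HRM1 tumours, against 858, 1999 and 3758 RPKM. The differences were -2.98 ± 0.28, -2.76 ± 0.34 and -1.60 ± 0.21 (SE, adjusted p = 7.06e-09, 4.37e-07 and 9.46e-07). The class I heavy chains H2-K1 (difference -0.39, adjusted p = 0.285) and H2-D1 (difference -0.65, adjusted p = 0.0655) were not called against the 6 lines. Against the FVB lines they were lower, with differences of -1.88 and -1.97 (adjusted p = 2.81e-05 and 2.50e-07). Cd274, which encodes the checkpoint ligand PD-L1, was at 1.94, 2.06, 1.39 and 1.54 RPKM in HRM1 tumours, with a median of 12.7 RPKM in the others (difference -2.33 ± 0.28 SE, adjusted p = 3.16e-07).

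The genes lowest against the nearest line held several of the same kind. Tgtp2, an interferon-induced GTPase, was at 6.80, 4.22, 1.62 and 1.12 RPKM in HRM1 tumours, against 9.82, 79.1 and 289.5 RPKM as the lowest, median and highest of the others. H2-T22, a non-classical class I gene, was at 7.83, 12.0, 6.79 and 7.36 RPKM in HRM1 tumours, against 31.0, 149.5 and 382 RPKM. Both have close copies (Tgtp1 and H2-T9) that may share reads, so their single values are uncertain. H2-Eb1, a class II beta chain, was at 3.04, 1.71, 2.51 and 2.08 RPKM in HRM1 tumours, against 7.43, 193 and 892 RPKM, and was not called against the FVB lines (difference -0.40, adjusted p = 0.637). Cda, which encodes cytidine deaminase, was at 0.515, 0.609, 0.522 and 0.301 RPKM in HRM1 tumours, against 5.76, 14.2 and 30.4 RPKM. None of these 4 overlapped between HRM1 and the 24 others.

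T and NK cell markers were lower than in the mean of the 6 lines, but not than in each line. Of 15 tested, 11 were lower (18.8% of all genes tested) and 0 higher (27.7%), with a median difference of -1.07. Without tumours 1-7 and 1-11, 4 were lower (13.5% of all genes tested). Against D2A1 1 was lower (17.8% of all genes tested) and 0 higher (38.3%), with a median difference of 0.05. The counts against E0771 were 3 lower (25.9%) and 2 higher (36.5%). Against EMT6 13 were lower (19.4%), against F311 and TSAE1 9 each (21.7% and 17.6%) and against R3T 5 (19.0%). The count higher was 0 against each of these lines. The mean of the summed level was 10.6 RPKM in HRM1 and 11.9 RPKM in D2A1. By tumour the sum was 14.9, 9.78, 11.3 and 6.52 RPKM in HRM1 tumours, against 9.07 to 295 RPKM in the others, and all 15 members were above 0 in each HRM1 tumour. Gzmb, a granzyme of killer cells, had a difference of -2.14 (adjusted p = 0.000137), and Cd8a of -1.33 (adjusted p = 0.0071). Cd4 (difference 0.10, adjusted p = 0.862) was not called. The part of these cells in the interferon result was not tested. Of 13 macrophage markers 8 were higher (27.7% of all genes tested) and 0 lower (18.8%) against the mean of the 6 lines. Without tumours 1-7 and 1-11, 3 were higher (18.8% of all genes tested). The count of 8 came with D2A1 and E0771, against which 12 and 13 were higher (38.3% and 36.5% of all genes tested). Against EMT6, F311, R3T and TSAE1 only 1 or 2 were higher and up to 3 lower, with median differences of -0.12, -0.03, -0.17 and -0.17. Their summed level was 1434, 1632, 2080.3 and 2038 RPKM in HRM1 tumours, against 169 to 2728 RPKM in the others, and the HRM1 mean of 1796 RPKM was below 2296 RPKM in F311 and 2018 RPKM in TSAE1.

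Of 23 tested chemokines and cytokines, 6 were higher and 3 lower, beside 27.7% and 18.8% of all genes tested. Against D2A1 13 were higher (38.3% of all genes tested) and 2 lower (17.8%), and against E0771 15 (36.5%) and 5 (25.9%). In the comparison with F311 2 were higher (22.0%) and 6 lower (21.7%). Cxcl1, a neutrophil attractant, was at 26.1, 26.6, 40.6 and 43.0 RPKM in HRM1 tumours, with a median of 8.84 RPKM in the others (difference 2.14 ± 0.34 SE, adjusted p = 2.18e-05). Csf3, the granulocyte growth factor, was at 8.97, 9.33, 7.07 and 6.28 RPKM in HRM1 tumours, with a median of 0.971 RPKM in the others (difference 1.89 ± 0.19 SE, adjusted p = 1.06e-08). Both were higher than in every line. Ccl5, an attractant of T cells, was lower than in every line, at 6.59, 3.26, 2.65 and 1.12 RPKM in HRM1 tumours, with a median of 21.7 RPKM in the others (difference -2.52 ± 0.37 SE, adjusted p = 5.35e-06). Neutrophil markers counted 4 of 7 higher and 0 lower, or 1 higher without tumours 1-7 and 1-11.

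The labelled driver did not stand out at the transcript level. Pik3ca was at 7.85, 6.45, 7.54 and 7.65 RPKM in HRM1 tumours, against 6.18, 7.75 and 15.6 RPKM as the lowest, median and highest of the others (difference -0.17 ± 0.09 SE, adjusted p = 0.146). RPKM values do not show sequence changes, so whether HRM1 carries a Pik3ca mutation is not measured here. Of 31 tested core genes of the pathway, 8 were higher (27.7% of all genes tested) and 2 lower (18.8%), with a median difference of 0.11. Without tumours 1-7 and 1-11, 3 were higher (18.8% of all genes tested) and 3 lower (13.5%). Inpp4b, a phosphatase of the pathway's lipids, was at 4.91, 5.78, 3.91 and 4.51 RPKM in HRM1 tumours and at no more than 2.04 RPKM in the others (difference 1.92 ± 0.14 SE, adjusted p = 4.74e-11). Akt1 was at 90.8, 89.8, 91.5 and 93.2 RPKM in HRM1 tumours, against 30.8 to 79.6 RPKM in the others (difference 0.73 ± 0.11 SE, adjusted p = 7.22e-06). Both lay above all 24 others. Inpp4b was apart from every line and Akt1 was not: TSAE1 averaged 78.0 RPKM in Akt1, beside 91.3 RPKM in HRM1.

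Genes induced by FOXO factors, which AKT keeps out of the nucleus, counted 3 higher and 4 lower of 17, or 1 higher and 5 lower without tumours 1-7 and 1-11. Among 10 tested growth factor receptors, 4 were higher (27.7% of all genes tested) and 2 lower (18.8%). Erbb3, which couples ERBB receptors to PI3K, was at 4.39, 4.61, 5.11 and 4.86 RPKM in HRM1 tumours, with a median of 0.279 RPKM in the others (difference 1.89 ± 0.10 SE, adjusted p = 1.83e-13). It was not apart from every line: TSAE1 averaged 3.85 RPKM, and the highest of the others was at 4.89 RPKM. Met1 averaged 6.89 RPKM. Erbb2 (difference 0.80), Egfr (0.80) and Met (0.69) were also higher than in the mean of the 6 lines, and Fgfr1 (-1.08) was lower. E0771 passed HRM1 in Egfr (means of 5.16 and 4.76 RPKM) and in Met (38.5 and 27.0 RPKM). Of 7 tested ERBB ligands, 2 were higher and 1 lower, or 1 higher without tumours 1-7 and 1-11. Tgfa, a ligand of the EGF receptor, was at 13.9, 12.1, 11.3 and 14.9 RPKM in HRM1 tumours and at no more than 9.77 RPKM in the others, without overlap (difference 2.24 ± 0.16 SE, adjusted p = 3.72e-11). Tgfa was not called against the FVB lines (difference 0.44, adjusted p = 0.271), and Met1 averaged 17.8 RPKM beside 13.0 RPKM in HRM1. Of 13 feedback genes of the RAS-MAPK pathway, 0 were higher and 2 lower, and 2 were higher and 1 lower without those tumours.

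Plau, the protease urokinase that activates plasminogen, was at 578, 356, 566 and 538 RPKM in HRM1 tumours, against 14.6, 51.1 and 130.4 RPKM as the lowest, median and highest of the others. The 4 HRM1 tumours lay above all others, tumour 1-7 being the lowest of them, and the difference was 3.35 ± 0.21 (SE, adjusted p = 1.96e-12). Of 16 genes of the plasminogen and matrix metalloproteinase systems, 5 were higher (27.7% of all genes tested) and 0 lower (18.8%). Against F311 2 were higher (22.0%) and 5 lower (21.7%).

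Metabolic lists were mixed. Their counts stand beside 27.7% of all genes called higher and 18.8% lower, or 18.8% and 13.5% without tumours 1-7 and 1-11. For single lines the shares higher and lower were 22.0% and 21.7% against F311 and 36.5% and 25.9% against E0771. They were 29.7% and 19.4% against EMT6 and 16.4% and 17.6% against TSAE1. Glycolysis and hypoxia genes counted 0 higher and 10 lower of 21, with a median difference of -0.36. Against F311 the direction was the other one, with 9 higher and 1 lower and a median difference of 0.46, and the summed level averaged 4093 RPKM in HRM1 and 3765 RPKM in F311. Gapdh was lower than in every line (difference -0.90 ± 0.13 SE, adjusted p = 3.85e-06). Of 16 genes of the amino acid stress response, 2 were higher and 8 lower, with a median difference of -0.49, and 1 was higher without tumours 1-7 and 1-11. Against F311 5 were higher and 3 lower. Chac1, which degrades glutathione, was at 0.479, 1.07, 1.35 and 0.810 RPKM in HRM1 tumours, with a median of 4.07 RPKM in the others (difference -1.56 ± 0.21 SE, adjusted p = 1.39e-06). Nqo1, a quinone reductase induced by NRF2, was lower, with a difference of -2.05 ± 0.16 (SE, adjusted p = 2.23e-10), as were 3 other members of that list of 11, and 1 was higher. Against EMT6 9 of the 11 were lower, and against TSAE1 3 were higher and 1 lower. Sterol synthesis genes counted 7 higher and 0 lower of 19, and 4 higher without tumours 1-7 and 1-11. Against E0771 2 were higher and 10 lower, with a median difference of -0.45, and the summed level averaged 323 RPKM in HRM1 and 432 RPKM in E0771. Ribosomal protein genes counted 1 higher and 9 lower of 14, and 0 higher and 2 lower without those tumours. Against F311 2 were higher and 1 lower, and against TSAE1 1 was higher and 0 lower. Of 23 genes of S phase and mitosis, 0 were higher and 3 lower, and 1 was higher and 1 lower without them.

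The remaining lists were small or mixed, and their counts are to be read against 27.7% of all genes called higher and 18.8% lower, or 18.8% and 13.5% without tumours 1-7 and 1-11. Fatty acid synthesis genes counted 4 higher and 2 lower of 12, and 1 higher and 3 lower without tumours 1-7 and 1-11. Endothelial genes counted 4 higher and 0 lower of 12, close to the share of all genes, and 1 higher without them. Genes of dendritic cells and MHC class II counted 0 higher and 4 lower of 9, and 2 lower without them. Targets of TGF-beta and YAP counted 4 higher and 2 lower of 13, and 4 and 0 without them, and Wnt targets 1 higher and 3 lower of 6, and 0 and 2 without them. Squamous genes counted 3 higher and 1 lower of 6, milk genes 3 higher and 0 lower of 7, and mast cell genes 1 higher and 0 lower of 5. Hormone receptors and luminal regulators counted 1 higher and 2 lower of 8, and the 2 B and plasma cell genes tested were not called. Without those tumours the squamous count was 4 and 0, the milk count 1 and 0 and the mast cell count 0 and 0.

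**Figure D4:**
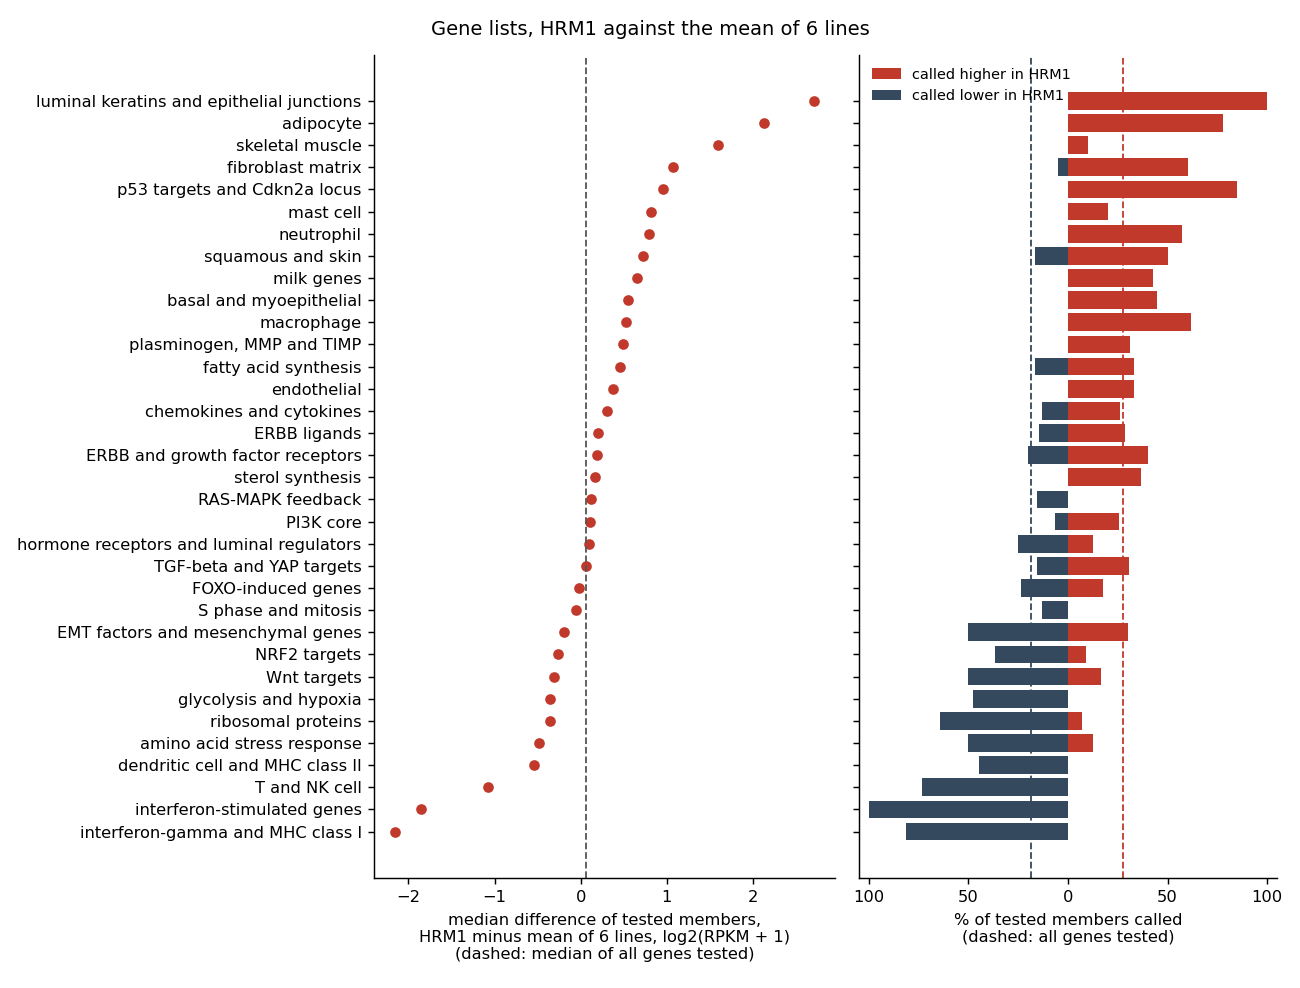
For each gene list, the median difference of its tested members in log2(RPKM + 1), HRM1 minus the mean of 6 lines (left), and the percentage of tested members called higher (red) or lower (dark) in HRM1 (right), with dashed lines for all genes tested. The luminal epithelial list is at the top and the 2 interferon lists are at the bottom, while lists of the PI3K pathway lie near the dashed median.

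Fat and muscle genes marked some of the HRM1 tumours. Fibroblast matrix genes summed to 1359, 3118, 1426 and 2008 RPKM in HRM1 tumours, against 464 to 2666 RPKM in the others. They counted 12 higher and 1 lower of 20, and 5 higher without tumours 1-7 and 1-11. Counts here stand beside 27.7% of all genes called higher and 18.8% lower, or 18.8% and 13.5% without tumours 1-7 and 1-11. Against F311 0 fibroblast matrix genes were higher (22.0% of all genes tested) and 1 lower (21.7%). Adipocyte genes counted 7 higher and 0 lower of 9, and 0 without those tumours, and 0 were called against EMT6, F311 or TSAE1. The summed level was 474, 6475, 97.7 and 599 RPKM in HRM1 tumours, against 14.1 to 3788 RPKM in the others, with tumour 1-7 the highest. Muscle genes summed to 18.1, 280.2, 12.1 and 513 RPKM in HRM1 tumours, against 3.74 to 378 RPKM in the others, with 1 of 10 called higher, or 0 without those tumours. Red cell genes counted 3 of 3 higher, or 0 without them, with sums of 964, 5377, 1138 and 1181 RPKM in HRM1 tumours and 42.7 to 8155 RPKM in the others.

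The genes that varied most among the 4 HRM1 tumours, named for their spread and given as a description, were Thrsp, Cox8b, Acta1, Cidea, Tnnt3, Ifi27l2b, Tnnc2 and Ckm. Thrsp, a lipogenic protein, was at 7.94, 414, 0.375 and 32.7 RPKM, and Cidea, a lipid droplet protein of brown fat, was at 0.197, 140.5, 0.0342 and 5.61 RPKM. Ucp1, the uncoupling protein of brown fat, was at 0.0557, 79.7, 0.0606 and 8.66 RPKM. The fat genes were highest in tumour 1-7 and the muscle gene Ckm in tumour 1-11, at 58.7 RPKM. Ifi27l2b was at 0.0368, 87.5, 0.0800 and 0.137 RPKM, high in tumour 1-7 alone. By contrast the summed epithelial genes were at 2598, 1704, 2855 and 2365 RPKM in HRM1 tumours, against 73.5 to 2099.6 RPKM in the others.

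**Figure D5:**
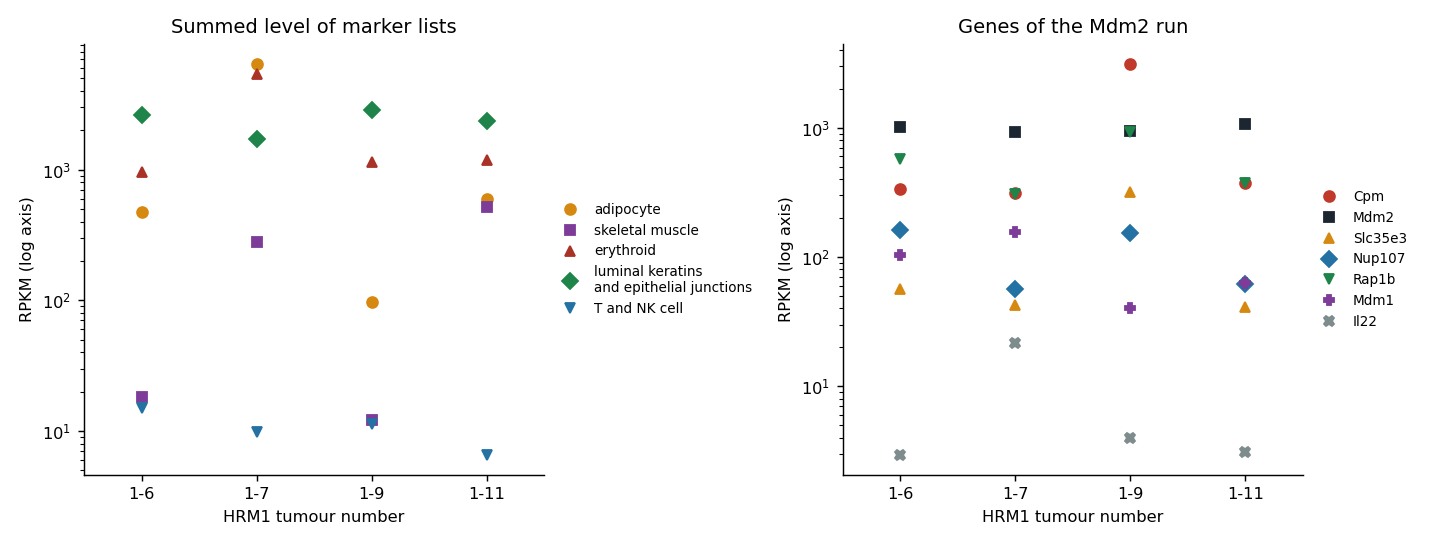
Summed RPKM of 5 marker lists (left) and RPKM of the 7 genes of the Mdm2 run (right) in each HRM1 tumour, on log axes. Muscle sums are high in tumours 1-7 and 1-11 and the fat sum in tumour 1-7, while Mdm2 is nearly even and Cpm is highest in tumour 1-9.

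Against the 3 FVB lines, 4501 of 12166 genes (37.0%) were called, of which 2156 (17.7%) were higher in HRM1 and 2345 (19.3%) lower, with a median difference of -0.02. Without tumours 1-7 and 1-11 these counts were 1161 and 1204. This comparison uses the same HRM1 tumours, so its values stand side by side with those above and are no separate support, and library series and line cannot be told apart in it. Of the 22 interferon-stimulated genes, 0 were higher and 22 lower, with a median difference of -1.58, and of 16 interferon-gamma and class I genes 0 were higher and 14 lower. Of 14 tested epithelial genes, 12 were higher and 1 lower, with a median difference of 2.08. The FVB lines differed in these genes. Epcam averaged 0.604 RPKM in 6DT1, 11.8 RPKM in Mvt1 and 304 RPKM in Met1, beside 122 RPKM in HRM1. Met1 also passed HRM1 in Grhl2 (9.96 and 4.85 RPKM), but not in Krt7, Krt19, Cldn7 or Ocln. Of 13 genes of the p53 list, 6 were higher and 0 lower.

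The 5 largest differences upward against the FVB lines were Cpm, S100a14, Krt7, Mup2 and Mdm2, and the 5 downward were Tgtp2, Csn3, Gzmg, Iigp1 and Ifi44. Krt7 averaged 497 ± 159 RPKM in HRM1 tumours (SD, n = 4), against 0.150 ± 0.217 RPKM in 6DT1, 17.6 ± 42.6 RPKM in Mvt1 and 65.6 ± 30.2 RPKM in Met1 (SD, n = 6 each), the Mvt1 mean resting on 1 of its 6 tumours at 104.6 RPKM. Mup2, a major urinary protein with near-identical copies and so uncertain, was at 409, 1403, 34.9 and 355 RPKM in HRM1 tumours. Csn3, a milk casein, was at 4.14, 11.7, 2.85 and 1.53 RPKM in HRM1 tumours and at 2.47 to 2840.0 RPKM in the FVB lines (difference -3.13 ± 0.59 SE, adjusted p = 0.000368). Iigp1, an interferon-induced GTPase, was at 5.61, 6.41, 1.79 and 1.59 RPKM in HRM1 tumours and at 13.0 to 93.05 RPKM in the FVB lines (difference -3.08 ± 0.43 SE, adjusted p = 1.74e-05). Cdkn2a was higher by 4.95 (adjusted p = 3.72e-11) and Gata3 had a difference of -2.79 (adjusted p = 1.45e-08). The Cdkn2a difference came with 6DT1 and Mvt1, at means of 0.281 and 0.293 RPKM. Met1 averaged 137.5 RPKM in Cdkn2a, beside 187 RPKM in HRM1.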

How the data were processed

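RNA-seq libraries of snap-frozen tumours were used as the RPKM values that the authors deposited in 1 table of 20188 genes. The submitters' processing notes name TopHat, DESeq2 and the build mm9, without role or version. Of the table's columns, 47 libraries were used and 288 were not. No 2 of the 47 libraries held identical values.

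Genes at 1 RPKM or more in at least 4 tumours of a comparison were fitted as log2(RPKM + 1) with limma 3.58.1 (trend, robust) in R 4.3.3, with a mean per line, and p-values were Benjamini-Hochberg adjusted over all genes tested. The fit was tested on simulated data. Tables and figures used Python 3.11.15, pandas 2.3.3, numpy 2.4.6 and matplotlib 3.10.9. Whole reads could be recovered from the RPKM steps, and limma-voom on them was an added alternative, as was leaving out tumours 1-7 and 1-11.

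Members and gene lists were chosen with earlier results of these data known. Named genes were the 12 in each direction furthest from the nearest line among genes apart from all 6 (5 RPKM or more, predicted genes left out), up to 4 called members per list with the smallest adjusted p and any apart from all lines, 17 fixed genes (H2-Ea is not analysed here), the 8 most variable in HRM1, and the 5 largest per direction against FVB lines. Members counted in passing, genes beside the Mdm2 run, Cdkn1a, Trp53 and Ucp1 were named outside this rule, and 3 genes that the rule names are not reported here. Gene order and promoters came from RefSeq, GRCm38.p6.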

Additional observations from a re-analysis of the deposited data

Results flagged for a closer look

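Of 175 named genes examined in the 4 HRM1 tumours, 14 had 1 tumour far from the other 3 by Dixon's criterion, a gap to the nearest that takes up most of the range, which chance gives in about 1 in 20 groups. In tumour 1-9, Cpm was at 3138 RPKM (313 to 370 in the other 3), Slc35e3 at 319 RPKM (41.3 to 56.97) and the keratin Krt17 at 7.87 RPKM (2.64 to 2.97).

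Tumour 1-7 held 9 of the 14. Its lipid synthesis genes Fasn, at 185 RPKM (21.5 to 25.8 in the other 3), and Acly, at 81.6 RPKM (40.6 to 43.3), were high beside its fat cell sum of 6475 RPKM, and the part of fat in them was not tested. Its red cell genes Hbb-b1, at 1867 RPKM (289.6 to 329), and Alas2, at 11.9 RPKM (3.23 to 3.65), were high as well. Nrg4 was at 18.4 RPKM (4.62 to 5.74), G6pdx at 48.8 RPKM (36.0 to 36.5), Tbx3 at 0.679 RPKM (0.327 to 0.375) and Ifi27l2b at 87.5 RPKM (0.0368 to 0.137). Plau was low there, at 356 RPKM (538 to 578).

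In tumour 1-6, Gzma was at 0.463 RPKM (0.0875 to 0.132). In tumour 1-11, E2f1 was low, at 6.89 RPKM (8.69 to 9.05).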

How the results depend on the processing

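Against the mean of 6 lines, calls fell to 13 higher and 1 lower with line means as units, and to 768 and 406 with the 24 others as 1 group. Genes higher than in every line numbered 498 with no filter on low values, 191 with a filter at 5 RPKM, 476 without F311 and 471 without R3T, and genes lower than in every line 267 without R3T. Against the FVB lines, calls were 1161 higher and 1204 lower without HRM1 tumours 1-7 and 1-11. Leaving out 1 tumour at a time gave 2875 to 3433 higher and 1963 to 2405 lower against the 6 lines, 269 to 323 and 138 to 177 apart from every line, and 1614 to 2689 higher and 1685 to 2860 lower against the FVB lines. Limma-voom on recovered reads, added after seeing the data, gave 3693 higher and 1960 lower, and 2565 and 2130 against the FVB lines. The cause of these shifts was not tested.

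HRM1, R3T and E0771 tumours share some replicate numbers, but deviations of same-numbered tumours correlated at -0.049, 0.037 and -0.024, so the numbers were not taken as pairs. With a replicate block, HRM1 against R3T gave 600 higher and 503 lower calls on the tumours of 3 lines, against 2130 and 1829 without the block on the same tumours.

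Of 176 called differences of named genes, 128 were called in every alternative but line means and 1 group of 24, and 0 reversed. Line means left 11 called, 1 group of 24 left 81, and leaving out tumours 1-7 and 1-11 left 131. HRM1 is 1 line with 4 tumours, and the comparison with the 6 lines does not separate it or its labelled driver from its host strain. The comparison with the lines in the same host strain does not separate HRM1 from its library series. Values well under 1 RPKM rest on few reads at these depths.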

Other observations

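The genes here were chosen after their values were seen and are given as values. Myc, a growth-promoting transcription factor that the labels name as driver of 6DT1 and Mvt1, was at 144, 157, 225 and 165 RPKM in HRM1 tumours, against 15.2, 33.5 and 127 RPKM as the lowest, median and highest of the 24 others. It was higher than in every line, with a difference of 2.12 ± 0.12 (SE, limma adjusted p = 4.93e-13), and was not called against the mean of the FVB lines (difference 0.36, adjusted p = 0.506). Those lines differed widely, with Myc means of 461 RPKM in 6DT1, 327 RPKM in Mvt1 and 19.4 RPKM in Met1. The HRM1 mean of 173 RPKM lay between them. Ngfr, the low-affinity neurotrophin receptor, was at 13.3, 16.3, 29.3 and 16.0 RPKM in HRM1 tumours, against 0.0544, 0.305 and 6.09 RPKM, and was also higher than in every line (difference 3.40 ± 0.17 SE, limma adjusted p = 4.75e-14).

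Of 4 interferon receptor genes looked at, Ifnar1, Ifnar2, Ifngr1 and Ifngr2, none was called lower in HRM1 than in the mean of the 6 lines. Ifngr1 was at 34.2, 36.0, 36.6 and 47.4 RPKM in HRM1 tumours, with a median of 20.3 RPKM in the others (difference 0.91 ± 0.11 SE, limma adjusted p = 1.82e-07), and Ifnar1 was at 9.81 to 11.2 RPKM in HRM1 tumours and at 5.13 to 15.5 RPKM in the others (difference 0.16, adjusted p = 0.223). Ifnar2 (difference 0.04, adjusted p = 0.768) and Ifngr2 (difference 0.22, adjusted p = 0.0567) were not called. Il22ra1, the receptor subunit for interleukin-22, was at 0.0535 to 0.146 RPKM in HRM1 tumours and at no more than 0.0611 RPKM in the others, below the filter. Krt71, a hair follicle keratin, was at 0.0573, 0.258, 24.7 and 0.0118 RPKM in HRM1 tumours, high in tumour 1-9 alone.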
